A study of Mus musculus with 4 samples.

Results

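Wnt ligands, receptors and modulators were examined in cells sorted from trachea and stomach of Tas2r143-reporter mice. The members were all protein-coding genes whose symbol was that of a Wnt ligand, Porcn, Wls, a Frizzled receptor, Lrp5, Lrp6, an R-spondin, Lgr4, Lgr5, Lgr6, Znrf3, Rnf43, an Sfrp, a Dkk, Wif1, an Axin or a Tcf/Lef factor. The rule used names only and no measured value, and it found 57 of the 48709 genes in the table (of 22018 protein-coding genes). The mice were C57BL/6 animals that all carried both the Tas2r143-CreERT2 transgene and the reporter allele Rosa26flox-mT-stop-flox-mG. A BAC transgene drives CreERT2 from the Tas2r143 promoter here, and recombination switches a membrane-bound Tomato reporter to EGFP. The mice were adult and were all given tamoxifen for 5 days and analysed 5 days after the last injection. Their age in weeks was not found in the sources used here. EGFP+/DAPI- cells and Tomato+/EpCAM+/EGFP-/DAPI- cells were sorted from each tissue, and only the Tomato sort was gated on the epithelial protein EpCAM. Cells of 3 mice were pooled into each library, and each sort of each tissue is 1 library (4 libraries in all), so that no value has a biological replicate. The transgene reports cells in which the Tas2r143 promoter was active during the tamoxifen treatment, and the Tomato cells are a mixture of the remaining EpCAM+ cells. That mixture can include tuft cells, the cells stained by DCLK1. The paper found EGFP in most DCLK1+ cells of the trachea, but in a minority of those of the stomach corpus.

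Wnt proteins are lipid-modified growth factors. Porcn, an acyltransferase of the endoplasmic reticulum, attaches the lipid and Wls carries the ligand to the cell surface. In the canonical branch the ligand joins a Frizzled receptor to the coreceptors Lrp5 and Lrp6, the Axin complex stops degrading beta-catenin, and Tcf/Lef factors transcribe target genes. Znrf3 and Rnf43 remove Frizzled receptors from the membrane, R-spondins bound to Lgr4, Lgr5 or Lgr6 take these ligases away, and Sfrp proteins, Wif1 and most Dkk proteins hold the pathway back outside the cell. In the stomach and in the airway the pathway is known for maintaining epithelial stem and progenitor cells, and tuft cells, the chemosensory cells that carry taste receptors in these epithelia, descend from such progenitors.

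Values are normalized counts, that is, reads assigned to a gene divided by a factor of the library. The sums of the tracheal EGFP, tracheal Tomato, gastric EGFP and gastric Tomato libraries were 9979296, 14867922, 13627751 and 15433150 normalized counts. The spacing of low values put 1 read at 1.61, 0.809, 0.786 and 0.816 normalized counts, which corresponds to about 6200000, 18400000, 17300000 and 18900000 assigned reads. Counting error alone puts the upper limit of a value of 0 at 3 reads. That is 4.83 normalized counts in the tracheal EGFP library and 2.36 to 2.45 in the others. Folds given below as at least a value use this limit, and they do not cover transcripts lost before sequencing. Of 3415 protein-coding genes with 200 or more normalized counts in each of the other 3 libraries, 100 (2.93%) were at 0 in the tracheal EGFP library. The corresponding counts were 41 of 3350 genes (1.22%) for the tracheal Tomato library, 9 of 3110 (0.289%) for the gastric EGFP library and 2 of 3065 (0.0653%) for the gastric Tomato library. The tracheal EGFP library was thus the shallowest and had the most such genes at 0, and the part of this in the values below was not tested. The sample titles and the tissue fields name opposite tissues for every library. Groups follow the titles, which the columns of the table repeat. The airway secretory gene Cyp2f2 was at 337775 normalized counts in the tracheal and 69 in the gastric Tomato library, and the stomach pepsinogen gene Pgc at 2 and 992416. Lipf, a gastric lipase, and Bpifb1, an airway secretory gene, went the other way, with 53408 and 7771 in the tracheal and 0 and 45309 in the gastric Tomato library. The tuft cell markers Avil (19477, 107, 27919 and 2598 normalized counts in the tracheal EGFP, tracheal Tomato, gastric EGFP and gastric Tomato libraries) and Dclk1 (6888, 86, 33844 and 2049) were higher by 4-fold or more in the EGFP library of both tissues. The B and plasma cell markers summed to 725923 normalized counts in the gastric EGFP library and to 37174 in the gastric Tomato library, and to 19334 and 1544 in the tracheal libraries.

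A member was called higher or lower in a library where log2((a + 1)/(b + 1)) of the 2 libraries was 2 or more, or -2 or less, and the higher library held 50 or more normalized counts. This is a rule of size and not a test. Intervals of ratios are 95% exact binomial intervals on the estimated reads, and Poisson intervals of levels are exact as well; both cover counting error only. Of the 57 members, 29 reached 50 normalized counts in at least 1 library, 12 stayed between 0 and 50, and 16 were at 0 in all 4. Fzd6, Lrp6, Znrf3, Lgr4, Tcf7l2 and Wls were the 6 members that reached 50 in every library. The tracheal EGFP library held 10 members at this level, the tracheal Tomato library 21, the gastric EGFP library 13 and the gastric Tomato library 19. Of all 48709 genes, 7807, 8463, 8749 and 9734 reached it in these libraries. The 57 members together summed to 21877 normalized counts in the tracheal EGFP library, 48658 in the tracheal Tomato library, 26668 in the gastric EGFP library and 17893 in the gastric Tomato library.

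**Figure D1:**
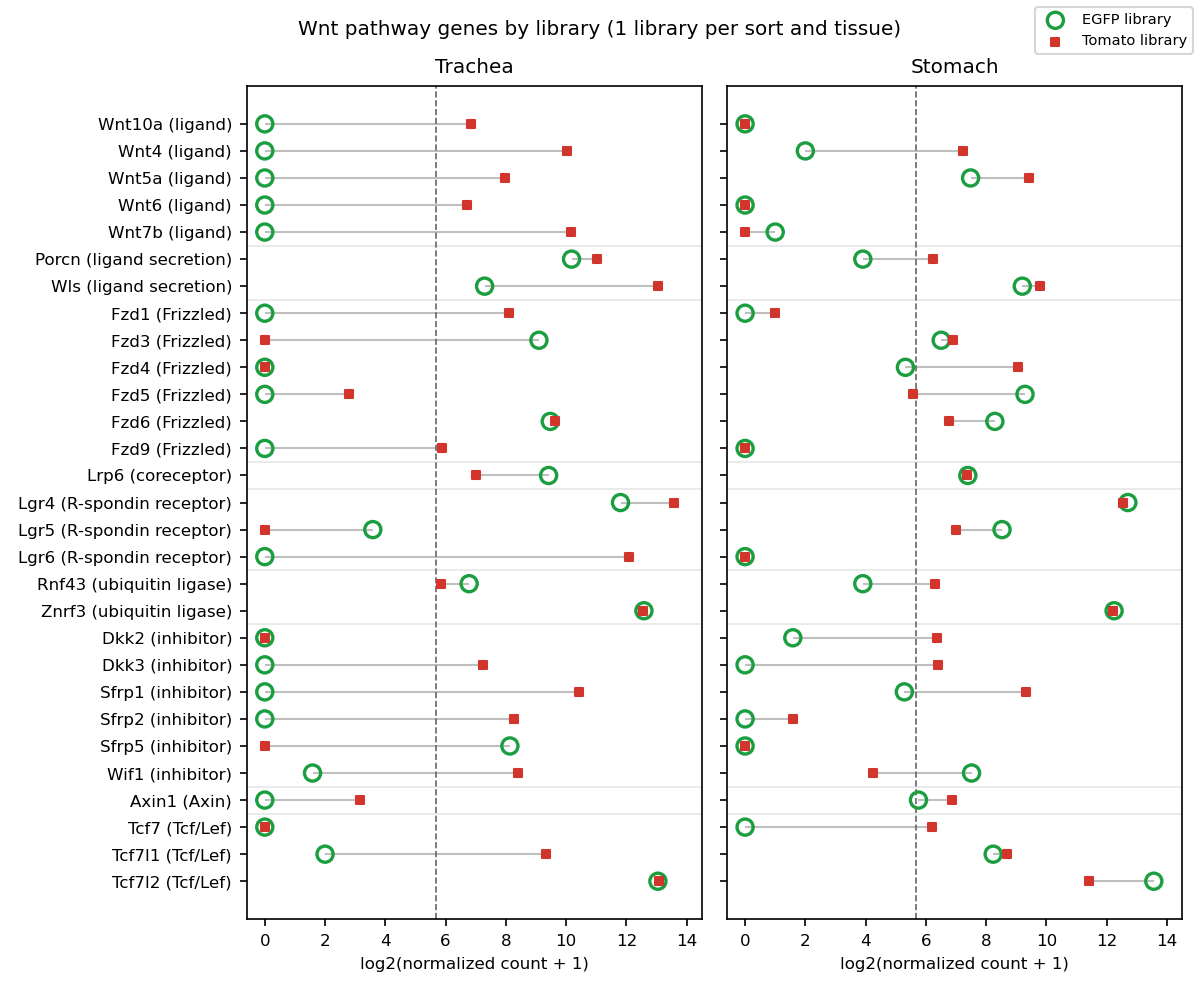
Level of the 29 members that reached 50 normalized counts, on the x axis as log2(normalized count + 1), in trachea (left) and stomach (right), with open green circles for the EGFP library, red squares for the Tomato library and a dashed line at 50 normalized counts. All 5 ligands shown lie at 0 in the tracheal EGFP library, whereas the circles and squares of Znrf3 coincide in both tissues on this scale (rescaled to the same total, the ratio is 1.53 in the trachea).

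The sequence before the start of transcription is shown for 5 members whose counts lay almost wholly in 1 library or that led their family in 1. RefSeq promoter windows (GRCm38.p6) were matched by symbol for 37 of the 57 members. The 250 bases before the start are printed in the direction of the gene, and capitals mark the letters CTTTGA or CTTTGT on either strand, the core that Tcf/Lef factors are known to bind; these motifs were chosen with the expression values known. Wnt6, Fzd1 and Lgr6 were highest in the tracheal Tomato library and at 0 or 1 normalized count in the others, Sfrp5 was above 0 only in the tracheal EGFP library, and Fzd5 was the leading Frizzled gene of the gastric EGFP library.
Wnt6, chr1:74771642-74771891, plus strand: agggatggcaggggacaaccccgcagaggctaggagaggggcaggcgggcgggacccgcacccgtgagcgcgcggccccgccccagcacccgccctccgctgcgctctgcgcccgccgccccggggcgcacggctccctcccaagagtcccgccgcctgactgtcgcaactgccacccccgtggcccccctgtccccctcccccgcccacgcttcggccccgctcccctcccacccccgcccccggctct
Fzd1, chr5:4758217-4758466, minus strand: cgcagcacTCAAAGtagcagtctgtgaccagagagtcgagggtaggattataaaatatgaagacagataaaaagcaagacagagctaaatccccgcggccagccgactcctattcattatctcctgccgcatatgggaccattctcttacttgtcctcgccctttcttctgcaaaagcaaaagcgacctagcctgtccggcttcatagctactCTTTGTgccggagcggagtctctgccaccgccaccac
Lgr6, chr1:135105277-135105526, minus strand: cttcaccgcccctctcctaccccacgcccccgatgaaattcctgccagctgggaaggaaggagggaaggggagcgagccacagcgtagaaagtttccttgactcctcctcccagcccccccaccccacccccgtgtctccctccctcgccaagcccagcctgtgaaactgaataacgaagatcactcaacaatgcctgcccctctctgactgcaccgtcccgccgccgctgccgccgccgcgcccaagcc
Sfrp5, chr19:42202253-42202502, minus strand: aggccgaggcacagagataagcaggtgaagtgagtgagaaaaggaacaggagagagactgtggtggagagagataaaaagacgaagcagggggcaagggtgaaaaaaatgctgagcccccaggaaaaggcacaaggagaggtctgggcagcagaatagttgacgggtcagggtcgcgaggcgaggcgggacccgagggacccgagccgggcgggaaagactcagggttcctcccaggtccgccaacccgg
Fzd5, chr1:64737751-64738000, minus strand: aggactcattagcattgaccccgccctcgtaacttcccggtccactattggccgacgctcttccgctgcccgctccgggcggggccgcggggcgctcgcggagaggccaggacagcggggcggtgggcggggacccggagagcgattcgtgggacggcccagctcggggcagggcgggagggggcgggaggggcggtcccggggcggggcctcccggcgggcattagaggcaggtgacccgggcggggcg

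Of these windows only that of Fzd1 held the motif, at 2 places that begin 242 and 37 bases before the RefSeq start. Among all 32851 windows of this length 27.6% held at least 1 of these 6-letter words, and 10 of the 46 windows of members did (21.7%). The windows of Wnt6, Fzd5, Lgr6, Sfrp5 and Fzd1 consisted of 79.6%, 76.4%, 65.2%, 59.6% and 51.2% G and C, against a median of 52.4% over all windows and 66.4% over those of members.

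No read of any of the 19 ligand genes was counted in the tracheal EGFP library, whereas 7 were above 0 and 5 reached 50 normalized counts in the tracheal Tomato library. Their summed level was 0 in the tracheal EGFP library, 2732 normalized counts in the tracheal Tomato library, 182 in the gastric EGFP library and 835 in the gastric Tomato library. Nearly all of the gastric EGFP sum was Wnt5a. Over all genes, 11522 were above 0 in the tracheal EGFP library and 13555 in the tracheal Tomato library. Of these, 7807 and 8463 reached 50 normalized counts.

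Wnt7b (chromosome 15, 85535437 to 85582473, minus strand, GRCm38), a ligand of developing airway epithelium, was at 0 normalized counts in the tracheal EGFP library, 1154 in the tracheal Tomato library, 1 in the gastric EGFP library and 0 in the gastric Tomato library. It was at least 239-fold higher in the tracheal Tomato than in the tracheal EGFP library, and at least 471-fold higher than in the gastric Tomato library. Wnt7b was therefore a tracheal Tomato signal in these data.

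Wnt4 (chromosome 4, 137277489 to 137299726, plus strand), which is known to act through both branches of the pathway, was at 0, 1050, 3 and 151 normalized counts in the tracheal EGFP, tracheal Tomato, gastric EGFP and gastric Tomato libraries, an order kept for the values of all further members. Its level was at least 217-fold higher in Tomato than in EGFP cells of the trachea, and 50.3-fold higher (interval 18.4 to 178) in the stomach, where the EGFP value rests on about 4 reads. Wnt4 was the only ligand called lower in the EGFP library of both tissues.

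Wnt5a (chromosome 14, 28504750 to 28527448, plus strand), the main noncanonical ligand, was at 0, 250, 178 and 682 normalized counts. The tracheal EGFP library stood apart from the other 3, with a level at least 51.7-fold lower than in tracheal Tomato cells and at least 36.8-fold lower than in gastric EGFP cells. In the stomach Wnt5a was 3.83-fold higher in the Tomato library (interval 3.31 to 4.47), just short of a call with a log2 ratio of -1.93.

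Wnt10a, a canonical ligand of skin appendages, was at 0, 115, 0 and 0 normalized counts. Wnt6 was at 0, 104, 0 and 0. Both were thus counted in the tracheal Tomato library only. Wnt5b reached 49 normalized counts in the tracheal Tomato library and Wnt9a 10, while Wnt11 was seen with 2 in the gastric Tomato library alone. The other 11 ligands, Wnt1, Wnt2, Wnt2b, Wnt3, Wnt3a, Wnt7a, Wnt8a, Wnt8b, Wnt9b, Wnt10b and Wnt16, were at 0 in all 4 libraries.

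Sums of fibroblast markers were higher in the Tomato library of both tissues. Wnt4 and Wnt5a were also higher there, and Wnt6, Wnt7b and Wnt10a were at 0 in the gastric Tomato library. The Tomato sort was gated on EpCAM and the EGFP sort was not. Of the 10 fibroblast markers 9 reached 50 normalized counts in the tracheal comparison, 8 of them were lower in the EGFP library and 1 was higher, and in the stomach all 10 were lower. They summed to 603, 25967, 267 and 28295 normalized counts, of which Dcn made up 444, 19397, 52 and 7010. Lum, Col1a1, Col1a2 and Dpt were at 0 in the tracheal EGFP library, Col6a3 in the tracheal Tomato library and Lum and Pdgfra in the gastric EGFP library. The 8 airway basal cell markers summed to 2632, 270385, 35 and 640 normalized counts, of which Krt15 made up 1436, 108030, 1 and 33, with Krt14 and Trp63 at 0 in the tracheal EGFP library. Sums of myeloid markers (852, 48957, 83 and 17615) and smooth muscle markers (94, 1678, 347 and 4449) were also higher in the Tomato library of both tissues. So were those of club (67649, 1481486, 5494 and 45480), chief (957, 53586, 236694 and 3138958) and pit cell markers (18, 166, 113420 and 963010). Sums of neck, mast and T cell markers had the same direction. Those of enteroendocrine (341, 184, 814 and 265749) and parietal cell markers (896, 21, 7460 and 17958) were higher there in the stomach only. Sums of B and plasma cell, tuft cell and general epithelial markers were lower in the Tomato library of both tissues. So were those of endothelial and ciliated cell markers in the stomach and of glial markers in the trachea. The part of any of these cell types in the ligand levels was not tested. In such sorted pools fewer cells of a type and less RNA per cell cannot be told apart.

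The secretion genes divided by tissue as much as by sort. Porcn (chromosome X, 8193848 to 8206525, minus strand) was at 1159, 2071, 14 and 74 normalized counts. It was 82.8-fold higher in tracheal than in gastric EGFP cells (interval 51.5 to 139) and 28.0-fold higher in tracheal than in gastric Tomato cells (interval 22.6 to 34.8). Both tracheal libraries thus lay far above both gastric ones. Within the stomach Porcn was lower in the EGFP library with a log2 ratio of -2.32, a call that ended with a pseudocount of 10, and within the trachea the log2 ratio of -0.84 was no call.

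Wls (chromosome 3, 159839672 to 159938664, plus strand) was at 156, 8563, 587 and 884 normalized counts. The tracheal Tomato library stood out, with a level 54.9-fold higher than in tracheal EGFP cells (interval 44.9 to 67.7) and 9.69-fold higher than in gastric Tomato cells (interval 9.10 to 10.3). In the stomach the ratio was 1.51 in favour of the Tomato library (interval 1.37 to 1.65), which is no call. The tracheal EGFP library thus held Porcn without a counted Wnt ligand and with the lowest level of Wls.

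Fzd6 was at or next to the top of the Frizzled receptors in every library, and the receptor beside it differed between libraries. To compare genes, levels were divided by the length of the merged exons, and the following are levels per kilobase. In the tracheal EGFP library Fzd6 led with 147 normalized counts per kilobase (exact Poisson interval 134 to 162), followed by Fzd3 with 42.7 (38.3 to 47.6). In the tracheal Tomato library Fzd6 led with 165 (155 to 176), followed by Fzd1 with 65.8 (58.9 to 73.1) and Fzd9 with 25.3 (19.9 to 32.0). In the gastric EGFP library Fzd5 came first with 90.4 (84.2 to 96.9) and Fzd6 next with 64.8 (58.6 to 71.5). In the gastric Tomato library Fzd4 came first with 79.9 (73.9 to 86.2) and Fzd6 followed with 22.2 (18.6 to 26.3). The intervals of these neighbours did not overlap in any library.

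Fzd5 (chromosome 1, 64730558 to 64737751, minus strand), a receptor needed by Paneth cells of the intestine, was at 0, 6, 625 and 47 normalized counts. It was 13.3-fold higher in gastric EGFP than in gastric Tomato cells (interval 10.1 to 17.5) and at least 129-fold higher in gastric than in tracheal EGFP cells. Gm38058, a gene model of the other strand that still awaits experimental evidence, covers 17.8% of the Fzd5 exon bases, and reads that overlapped both genes were left out of the authors' counts.

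Fzd3 (chromosome 14, 65192449 to 65262463, minus strand), known from axon guidance and planar polarity, was at 547, 0, 90 and 119 normalized counts. In the trachea it was at least 225-fold higher in the EGFP library, whereas the gastric libraries differed by a log2 ratio of -0.40. Among EGFP cells Fzd3 was 6.08-fold higher in the trachea (interval 4.89 to 7.55). Fzd3 and Fzd5 thus marked opposite EGFP libraries.

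Fzd4, the receptor of norrin in vessels, was at 0, 0, 39 and 537 normalized counts, and was 13.8-fold higher in the Tomato than in the EGFP library of the stomach (interval 10.2 to 18.6). Fzd1 was at 0, 276, 0 and 1, and Fzd9 at 0, 58, 0 and 0, so that both were tracheal Tomato signals. Fzd6, which is known from planar polarity, was at 710, 797, 312 and 107. It was no call between the sorts of either tissue, and was 7.45-fold higher in tracheal than in gastric Tomato cells (interval 6.21 to 9.01).

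The remaining Frizzled genes stayed low, with highest levels of 40 normalized counts for Fzd7 in the tracheal EGFP library, 23 for Fzd2, 2 for Fzd8 and 1 for Fzd10, the last 3 in the gastric Tomato library.

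Of the coreceptors, Lrp6 was at 684, 129, 167 and 162 normalized counts, and the tracheal EGFP library held the highest level. It was 5.30-fold higher there than in tracheal Tomato cells (interval 4.42 to 6.43) and 4.10-fold higher than in gastric EGFP cells (interval 3.48 to 4.87), both close to the 4-fold limit, and the second ended with a pseudocount of 10. In the stomach the sorts differed by a ratio of 1.03 (interval 0.842 to 1.25). Lrp5 stayed under the minimum, with 46 normalized counts in the gastric EGFP library and 6 or fewer elsewhere.

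The 4 R-spondin genes were nearly absent from the counts. Rspo4 reached 29 normalized counts and Rspo3 12 in the gastric Tomato library, Rspo3 was at 3 in the tracheal Tomato library, and Rspo1 and Rspo2 were at 0 throughout. Neither EGFP library held a counted read of an R-spondin.

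Of their receptors, Lgr4 was at 3578, 12192, 6673 and 5942 normalized counts, so that it was present in every library at a high level. It was 3.41-fold higher in tracheal Tomato than in tracheal EGFP cells (interval 3.26 to 3.56), which is no call, and its gastric levels differed by a ratio of 1.12 (interval 1.09 to 1.16).

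Lgr6 (chromosome 1, 134983301 to 135105276, minus strand), a stem cell marker of skin that is also known in the airway, was at 0, 4303, 0 and 0 normalized counts. It was at least 891-fold higher in tracheal Tomato than in tracheal EGFP cells and at least 1758-fold higher than in gastric Tomato cells.

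Lgr5 (chromosome 10, 115450311 to 115587780, minus strand), the stem cell marker of intestine and gastric glands, was at 11, 0, 368 and 127 normalized counts. In the stomach it was 2.90-fold higher in the EGFP library (interval 2.41 to 3.49), which is no call, and among EGFP cells it was 33.5-fold higher in the stomach (interval 15.7 to 81.6). Lgr5 was thus a gastric and Lgr6 a tracheal member, with Lgr4 in both tissues.

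Znrf3, which targets Frizzled receptors for degradation, had the narrowest range of the 6 members that reached 50 in every library, at 6135, 5981, 4859 and 4724 normalized counts. The ratio of EGFP to Tomato was 1.03 in the trachea (interval 0.986 to 1.07) and 1.03 in the stomach (interval 0.992 to 1.07), within counting error on the deposited scale. With every library rescaled to the same total these ratios were 1.53 (interval 1.47 to 1.59) and 1.16 (interval 1.12 to 1.21), outside it. Its homolog Rnf43 was at 109, 56, 14 and 78. Rnf43 was 5.57-fold higher in the Tomato library of the stomach (interval 3.32 to 9.74) and 7.79-fold higher in tracheal than in gastric EGFP cells (interval 4.55 to 13.8). The first of these calls ended with a pseudocount of 10.

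Of the 9 secreted inhibitors, 5 reached the minimum in the trachea, of which 4 were lower in the EGFP library and Sfrp5 was higher, where 32.4% of all genes were lower and 25.2% higher. In the stomach 4 reached it, of which 3 were lower and Wif1 was higher, where 22.4% of all genes were lower and 14.8% higher. The 9 genes summed to 282, 2170, 222 and 844 normalized counts.

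Sfrp1 (chromosome 8, 23411502 to 23449632, plus strand) was at 0, 1380, 38 and 637 normalized counts. It was at least 286-fold higher in the Tomato library of the trachea and 16.8-fold higher in that of the stomach (interval 12.6 to 23.1). Dkk3 was at 0, 151, 0 and 84, at least 31.3-fold and at least 35.6-fold higher in the Tomato library of trachea and stomach. Along with Wnt4, these were the members called lower in the EGFP library of both tissues. Sums of fibroblast markers and of several other cell types, given above, were higher in the Tomato library of both tissues. The part of any of them in these levels was not tested.

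Sfrp2 was at 0, 305, 0 and 2 normalized counts, a tracheal Tomato signal, and 16.1% of its exon bases are shared with the antisense gene Gm26771. Dkk2 was at 0, 0, 2 and 82, a gastric Tomato signal. Sfrp4 reached 21 normalized counts in the gastric Tomato library, and Dkk1 and Dkk4 were at 0 in all libraries.

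Sfrp5 (chromosome 19, 42197971 to 42202252, minus strand) was at 280, 0, 0 and 0 normalized counts. It was at least 115-fold higher in tracheal EGFP than in tracheal Tomato cells and at least 119-fold higher than in gastric EGFP cells. Sfrp5 was the only secreted inhibitor above 2 normalized counts in the tracheal EGFP library.

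Wif1 (chromosome 10, 121033960 to 121100650, plus strand), which binds Wnt ligands directly, was at 2, 334, 182 and 18 normalized counts. In the trachea it was lower in the EGFP library with a log2 ratio of -6.80, where the EGFP value rests on about 1 read and the Tomato level was 167-fold higher (interval 37.0 to 8214). In the stomach it was 10.1-fold higher in the EGFP library (interval 6.55 to 16.5). Of the 15 members that reached the minimum in both tissues, Wif1 was the only 1 called in opposite directions. The share of all genes so called was not counted.

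Axin genes were low. Axin1, the scaffold of the beta-catenin destruction complex, was at 0, 8, 53 and 117 normalized counts. It was at least 11.0-fold higher in gastric than in tracheal EGFP cells and 14.6-fold higher in gastric than in tracheal Tomato cells (interval 7.62 to 30.7). Axin2, a common target of canonical signaling, was at 0 in both tracheal libraries, 4 in the gastric EGFP and 1 in the gastric Tomato library.

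Tcf7l2 (chromosome 19, 55741820 to 55933654, plus strand), the main Tcf/Lef factor of gut epithelium, was at 8457, 8674, 12112 and 2739 normalized counts and was the most abundant member per kilobase of both EGFP libraries, with 964 (938 to 990) in the trachea and 1380 (1359 to 1402) in the stomach. In the stomach it was 4.42-fold higher in the EGFP library (interval 4.26 to 4.59). In the trachea the ratio of EGFP to Tomato was 0.975 (interval 0.943 to 1.01), within counting error on the deposited scale, and 1.45, outside it, with every library rescaled to the same total. The gastric Tomato library was the low one of the 4.

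Tcf7l1, a factor that acts mostly as a repressor, was at 3, 638, 300 and 412 normalized counts, so that only the tracheal EGFP library was low. The tracheal Tomato level was 213-fold higher (interval 54.7 to 1639), resting on about 2 reads in the EGFP library. Tcf7, known best from T cells, was at 0, 0, 0 and 72 normalized counts, and Lef1 was at 0 in all libraries. At the depth of these libraries a low level of Lef1 was not detectable.

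**Figure D2:**
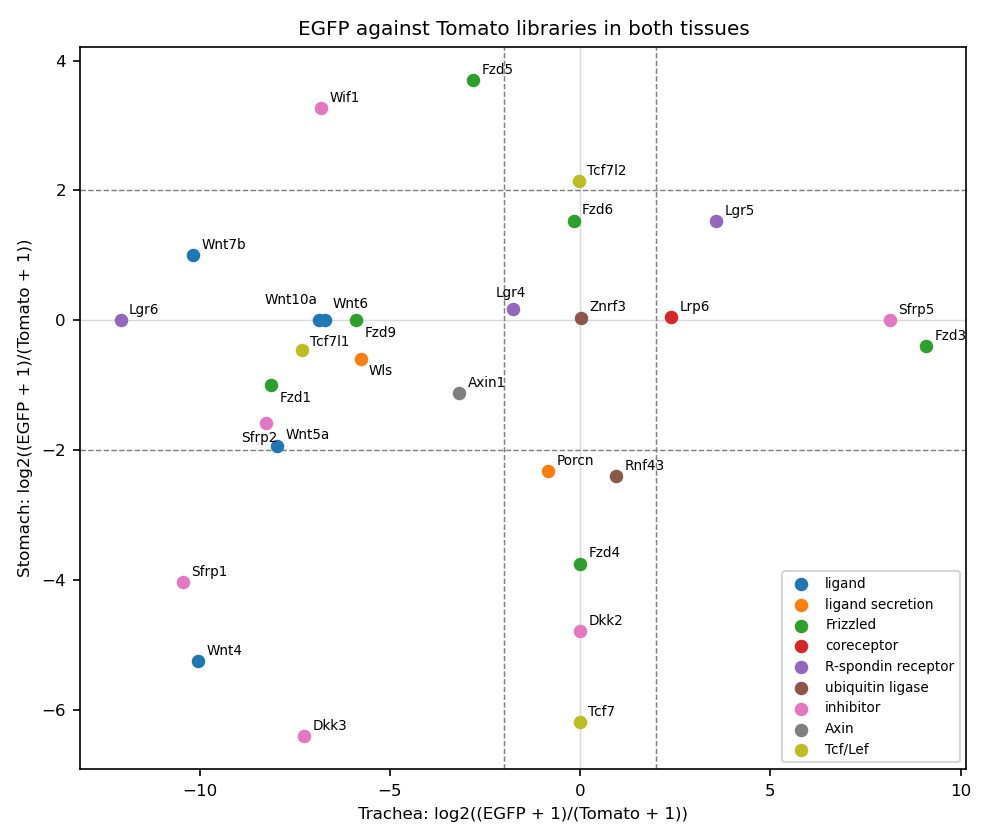
log2((EGFP + 1)/(Tomato + 1)) of the 29 members in trachea (x axis) and stomach (y axis), 1 point per gene coloured by role, with dashed lines at the 4-fold limits of 2 and -2; points at 0 on an axis include genes under 50 normalized counts in that tissue. Wnt4, Sfrp1 and Dkk3 lie at the lower left, Wif1 at the upper left with 3.27 in the stomach, and no point lies at the upper right beyond both limits.

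Counted over the members, 23 reached the minimum in the tracheal comparison of EGFP with Tomato, of which 3 were higher (Lrp6, Fzd3 and Sfrp5), 14 were lower and 6 were neither. Of all 10523 genes that reached it, 25.2% were higher, 32.4% were lower and 57.6% were either. In the stomach 21 members reached the minimum, of which 3 were higher (Fzd5, Wif1 and Tcf7l2), 8 were lower and 10 were neither, against 14.8% higher, 22.4% lower and 37.2% either of 11094 genes. The median log2 ratio of the members was -6.71 in the trachea and -0.59 in the stomach, and that of all genes -0.32 and -0.15. The tracheal median rests on members at 0 in the EGFP library and was -3.64 with a pseudocount of 10, and the gastric one was -1.13 at a minimum of 20 and 0.04 at a minimum of 200. Of the 15 members that reached the minimum in both tissues, 0 were called higher in both and 3 lower in both, where of 8594 genes 5.14% were higher and 9.62% lower in both. Of the 14 called lower in the trachea, 7 were under the minimum in both gastric libraries, namely Wnt6, Wnt7b, Wnt10a, Fzd1, Fzd9, Lgr6 and Sfrp2. The corresponding share among all genes lower in the trachea was not counted. Of the 23 members that reached the minimum in the trachea 15 reached it in the stomach too, and of 10523 genes 8594 did. With every library rescaled to the same total the split in the trachea was 4 higher and 14 lower, against 30.5% higher and 27.8% lower of all genes, and in the stomach 3 and 8, against 16.4% and 20.6%. The median of all genes shifted by 0.67 in the trachea and 0.21 in the stomach.

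Between the tissues, tracheal and gastric EGFP cells differed by 4-fold or more in 11 of the 16 members that reached the minimum, where 48.1% of all genes did. Lrp6, Fzd3, Porcn, Rnf43 and Sfrp5 were higher in the trachea, and Axin1, Fzd5, Wnt5a, Lgr5, Wif1 and Tcf7l1 were higher in the stomach. Of all 10337 genes 19.8% were higher in the trachea, 28.3% lower. Between the Tomato libraries 27 members reached the minimum and 18 were called. Of the 27 members, 12 were higher in the trachea (Fzd1, Fzd6, Fzd9, Wnt4, Wnt6, Wnt7b, Wnt10a, Porcn, Wls, Lgr6, Sfrp2 and Wif1) and 6 were lower (Axin1, Fzd3, Fzd4, Lgr5, Dkk2 and Tcf7), against 20.3% higher, 27.9% lower and 48.2% either of 11338 genes. The median log2 ratio of trachea to stomach was -0.71 for members in the EGFP libraries and 1.11 in the Tomato libraries, and for all genes -0.16 and -0.11. Fzd3 and Wif1 were called in opposite directions by the sorts. Fzd3 was higher in tracheal EGFP and in gastric Tomato cells, and Wif1 in gastric EGFP and in tracheal Tomato cells. The share of all genes called in opposite directions by the sorts was not counted.

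**Figure D3:**
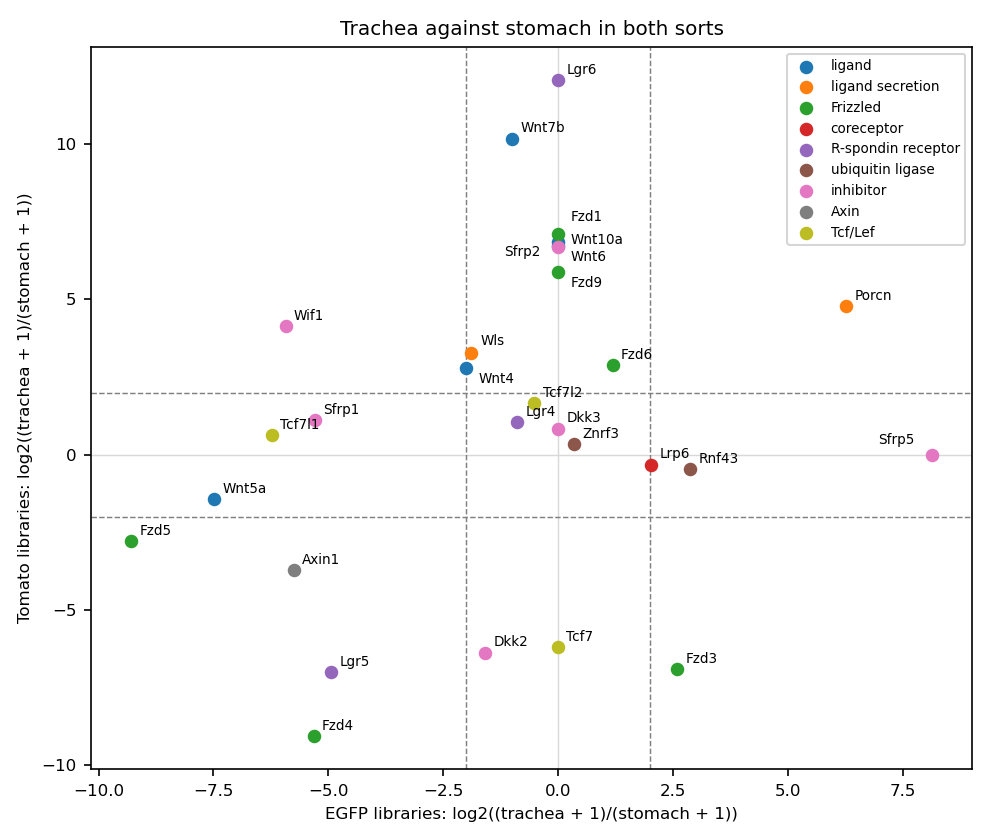
log2((trachea + 1)/(stomach + 1)) of the 29 members in the EGFP libraries (x axis) and the Tomato libraries (y axis), 1 point per gene coloured by role, with dashed lines at 2 and -2; points at 0 on an axis include genes under 50 normalized counts in that sort. Porcn lies at the upper right and Sfrp5 at the far right with 8.13 in the EGFP libraries. Fzd5, Axin1, Lgr5 and Fzd4 lie at the lower left. Of these, Fzd4 was under 50 normalized counts in both EGFP libraries and Fzd5 in both Tomato libraries, so neither was called in that sort.

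A fit over the 4 libraries with terms for sort and tissue gave the difference by sort averaged over both tissues. It leaves 1 residual degree of freedom. With the trend, limma took the variance of each gene from genes of like level and gave the gene's own residual no weight. A gene can thus pass although its tissues differ. Wls, for one, passed at a minimum of 200 with log2 ratios of -5.77 in the trachea and -0.59 in the stomach. With limma, 0 of the 29 members passed an adjusted p of 0.05 for the sort, 5 (17.2%) had an unadjusted p under 0.05 against 1434 of 13023 genes (11.0%), and 121 of 13023 genes were higher and 183 lower in EGFP cells. Sfrp1 had the smallest adjusted p of 0.0503 in limma, with a log2 difference of -7.23 (SE 2.23), and was lower in 2 of 2 tissues. For the tissue term Porcn passed in limma (log2 difference of trachea to stomach 5.53, SE 1.58, adjusted p = 0.0331) and was higher in the trachea in 2 of 2 sorts. For the tissue term 3 of the 29 members (10.3%) had an unadjusted limma p under 0.05, against 1210 of 13023 genes (9.29%). At the adjusted threshold 85 of these genes were higher and 142 lower in the trachea. Without a trend in the variance limma called no gene at all, and the adjusted p of Porcn was 0.509.

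Other genes of the pathway were examined as 4 lists of 87 genes in all. In the trachea 58 of them reached the minimum, of which 20 were higher and 25 lower in the EGFP library, with a median log2 ratio of -0.50, where 25.2% of all genes were higher and 32.4% lower. In the stomach 51 reached it, with 8 higher and 15 lower and a median of 0.54, where the shares of all genes were 14.8% and 22.4%. The counts of each list are to be read against the same shares. The intracellular core of the canonical branch had 9 higher and 7 lower of 24 genes in the trachea and 4 higher and 3 lower of 24 in the stomach. The noncanonical list had 8 higher and 5 lower of 13, and 2 higher and 3 lower of 8. Other extracellular or membrane modulators had 1 higher and 5 lower of 6, and 0 higher and 5 lower of 7. Known targets had 3 higher and 8 lower of 16, and 2 higher and 4 lower of 13.

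Of the 44 genes of these lists that reached the minimum in both tissues, 5 (11.4%) were higher in the EGFP library of both, against 5.14% of all genes. Sox9, a transcription factor of progenitors and a Wnt target, was at 38269, 3777, 36316 and 9002 normalized counts. Ryk, a noncanonical Wnt receptor, was at 726, 47, 1291 and 268. Nfatc1, a calcium-dependent transcription factor, was at 1143, 1, 1020 and 194. Tnks2, a tankyrase that lowers Axin, was at 630, 78, 562 and 116, and Tle4, a corepressor of Tcf factors, at 195, 6, 140 and 25. Both EGFP libraries were thus above both Tomato libraries for each of the 5.

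In the opposite direction 6 of the 44 genes (13.6%) were lower in the EGFP library of both tissues, against 9.62% of all genes. Celsr2, an atypical cadherin of planar polarity, was at 81, 4991, 11 and 620 normalized counts. Gpc3, a glypican that binds Wnt proteins, was at 43, 6409, 154 and 633. Fosl1 was at 2, 1738, 13 and 285, and Tmem88, an inhibitor of Dishevelled, at 161, 900, 6 and 96. Amer1, a partner of Apc, was at 92, 684, 47 and 198, and the corepressor Tle1 at 0, 371, 30 and 192.

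The largest single ratios in the trachea outside these sets were those of the planar polarity gene Vangl1 (0, 2083, 326 and 95 normalized counts), the target Ephb2 (0, 1701, 39 and 3), the target Smoc2 (0, 782, 16 and 21) and the planar polarity gene Intu (615, 0, 35 and 0). In the stomach they were those of the inhibitors Sostdc1 (0, 0, 0 and 603) and Igfbp4 (0, 0, 0 and 93), of the planar polarity gene Prickle2 (6, 0, 2 and 84) and of Pygo2 (3, 1, 215 and 9), a cofactor of beta-catenin. Apc and Ctnnb1 were picked after their values were seen: Apc was at 1575, 2, 51 and 26 normalized counts, and Ctnnb1, which encodes beta-catenin, at 174, 2740, 1765 and 599.

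**Figure D4:**
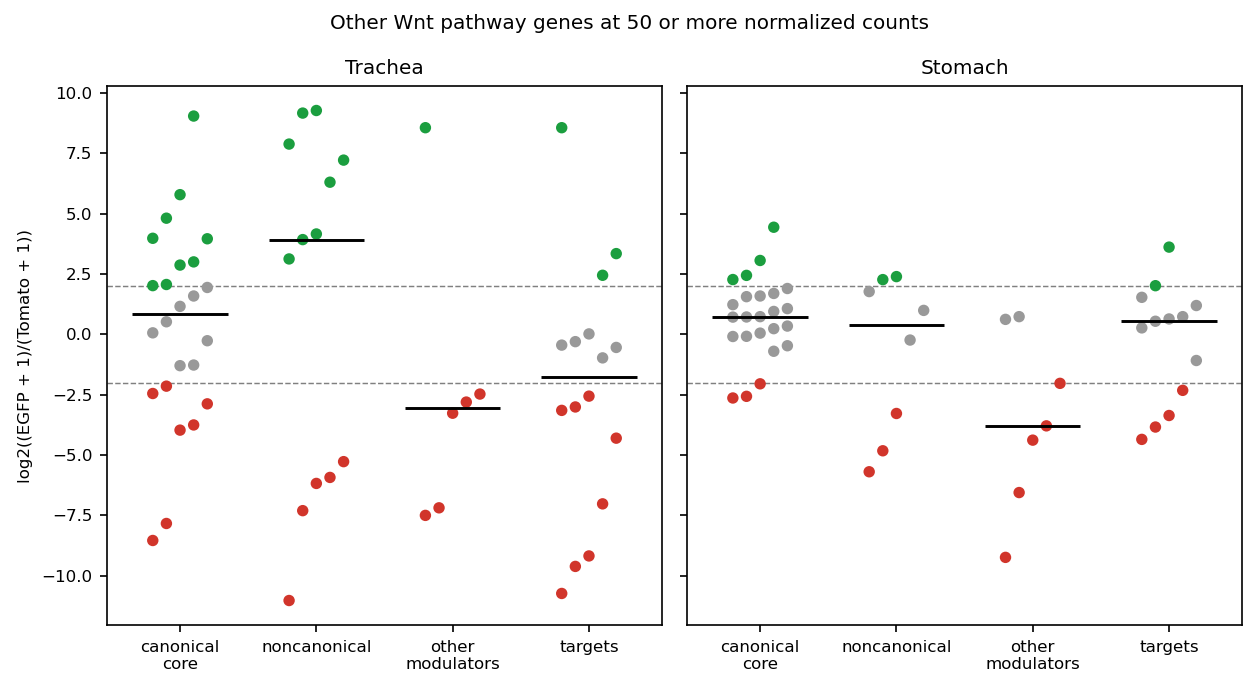
log2((EGFP + 1)/(Tomato + 1)) of other Wnt pathway genes that reached 50 normalized counts in trachea (left) and stomach (right), 1 point per gene, by list. Green points were higher, red lower and grey neither by the 4-fold rule (dashed lines at 2 and -2), and black bars are medians; modulators lie mostly below the lower line in both tissues.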

How the data were processed

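RNA of sorted cells (4 libraries) was amplified by the authors as full-length cDNA by PCR, without molecular identifiers or strand, and sequenced single-end. Per the paper's methods and the submitters' processing notes, reads were trimmed with Reaper 13-100, aligned to mm10 (GRCm38) with STAR 2.4.0a and counted per gene with featureCounts 1.4.5-p1, which left out reads on several genes or places. The authors deposited normalized counts (a signal in whole numbers); the sources used here do not state how their factors were set. Values could not be turned back into whole reads, so no count model was used. The worth of 1 read was estimated from the spacing of values between 3 and 60. No count of a single library could be tested, and members were called by size (pseudocount 1, minimum 50, 4-fold). limma 3.58.1 (R 4.3.3) fitted log2(value + 1) over the 4 libraries, with a trend and Benjamini-Hochberg adjustment over all genes fitted. Exon lengths and positions came from GENCODE M21 for all 57 members, and promoters from RefSeq. The scripts were tested on simulated data. Members and lists were chosen with earlier results of these data known. All members were accounted for; of other pathway genes, those called alike in both tissues and the 5 largest ratios of each tissue were named, and of a list of markers at most the 3 highest, of which 1 is not reported here, together with markers at 0 in a library. Lipf and Bpifb1 were named after their values were seen. Alternatives covered the pseudocount, the minimum, the scaling, the fold and the trend.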

Additional observations from a re-analysis of the deposited data

Results flagged for a closer look

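Wif1 was called in opposite directions in the 2 tissues: its log2 ratio of EGFP to Tomato was -6.80 in the trachea and 3.27 in the stomach. With 1 library per sort and tissue this difference between tissues was not tested.
In the comparison of trachea with stomach, Fzd3 had a log2 ratio of 2.59 in EGFP cells and -6.91 in Tomato cells, and Wif1 had -5.93 and 4.14. These differences between the sorts were not tested either. For neither kind of comparison was the share of all genes called in opposite directions counted.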

How the results depend on the processing

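No paired analysis was possible because each group is 1 library and the labels carry no replicate numbers, and for the same reason no replicate could be left out; the limma fit has the tissue as a term in place of such a block. Among 36 alternatives of the counts of members called, 32 stayed within 1.5 times the count reported. With a minimum of 200 normalized counts the members called became 4 in the stomach (2 higher, 2 lower), 7 between the EGFP libraries (4 higher, 3 lower) and 10 between the Tomato libraries (9 higher, 1 lower), from 11, 11 and 18, since fewer members were counted. Without a minimum 17 members were called between the EGFP libraries, 6 of them higher in the trachea. At a fold of 8 the split between the EGFP libraries was 2 higher and 6 lower. The shares of all genes at these settings are not given here, so these splits cannot be read against them. In the limma fit for the sort 1 member was called with a pseudocount of 10 (Sfrp1, adjusted p = 0.0435), 1 with a minimum of 20 (Sfrp1, 0.0376) and 1 with a minimum of 200 (Wls, 0.0348), while rescaling to the same total left 0 (smallest adjusted p 0.0916) and limma without a trend 0 (0.643). For the tissue the fit without a trend called 0 members, and Porcn kept an adjusted p between 0.0209 and 0.0499 in limma under the other alternatives. Of 228 recomputed ratios of single members none changed sign and 44 left their counting interval, 39 of them with a pseudocount of 10. The tracheal EGFP library was the shallowest, and the part of its depth in its values near 0 was not tested.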
